A study of Mus musculus with 13 samples.

Results

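The genes described here are 59 named mouse genes of the extracellular matrix and its receptors, out of 21951 protein-coding genes of GENCODE release M21. They comprise 26 collagen chains, 10 laminin chains, 16 integrin subunits and 7 further genes, namely the nidogens *Nid1* and *Nid2*, the proteoglycans *Agrn* and *Hspg2*, the glycoproteins *Fn1* and *Tnc*, and the dystroglycan gene *Dag1*. The rule lists them by name and uses no measured value, but the names were chosen with earlier results of these data known. All 59 were found in the annotation. For each gene, the listed peaks of H3K4me3 (K4) and H3K27me3 (K27) within 2 kb of any transcription start site (TSS) gave its promoter state, and the listed OLIG2 peaks were taken from the gene body and 5 kb upstream.

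The series follows the oligodendrocyte lineage through neural stem cells (NSCs), oligodendrocyte precursor cells (OPCs) and newly formed oligodendrocytes (NFOs), with no treatment. NSCs were a purchased culture from E14.5 cortex of CD-1 mice, kept in EGF and FGF, although their sample label gives the strain C57BL/6. OPCs and NFOs were taken directly from C57BL/6 brains at postnatal day 7 by immunopanning, on plates coated with antibodies to PDGFRα and GalC, after microglia and endothelial cells had been depleted on a lectin plate. ChIP-Seq gave 6 histone libraries, for K4 and K27 in each stage, and 2 OLIG2 libraries, for OPCs and NFOs. RIP-Seq gave 2 libraries, of RNA bound by OLIG2 and of a control whose title says input while its antibody label says IgG, so that every condition rests on 1 library. No value below therefore carries an error between animals or cultures, no test between stages was possible, and members are described beside the same measure over all protein-coding genes. For all 6 histone libraries the antibody field contradicts the title by naming the opposite mark, and marks were taken from the titles. Within 2 kb of a start lay 48.1%, 71.9% and 47.7% of the listed K4 peaks in NSCs, OPCs and NFOs, and 10.0%, 17.1% and 24.0% of the K27 peaks.

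Basement membranes are sheets of type IV collagen and laminin trimers, tied together by nidogen and by heparan sulfate proteoglycans such as perlecan and agrin, whereas fibrillar collagens build the interstitial matrix. Cells hold on to these proteins through integrins, each a pair of an α and a β subunit, and through dystroglycan. In brain most basement membrane lies around vessels and below the meninges, and laminin on axons and vessels is a known cue for oligodendrocyte precursors and for myelination through α6β1 integrin. K4 marks promoters that are active or poised, and K27, the mark of Polycomb, is found at silenced promoters. A promoter with overlapping peaks of both marks is called bivalent.

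A gene was called K4 only or K27 only if just that mark was listed near its starts, bivalent if overlapping K4 and K27 peaks formed a domain there with no separate peak of either mark, mixed if both marks were present in another arrangement, and unmarked if neither was listed. The 6 histone lists held 12688 to 36069 called peaks, and the number of reads behind them is unknown. K4 peaks in NFOs were narrow, with a median width of 255.5 bp, where OPC peaks had 987.0 bp and NSC peaks 553.0 bp, and the peak names show single-end reads in NSCs and paired-end reads in the other stages, so widths are not on 1 scale. Promoters of *Olig1*, *Olig2*, *Sox10* and *Nkx2-2*, which define the lineage, were K4 only in OPCs and NFOs, but K4 was listed at all 4 in NSCs as well (10.9, 10.0 and 5.58 for *Olig1*, *Olig2* and *Nkx2-2*), where *Sox10* was bivalent. Markers of OPCs had K4 at 4, 5 and 4 of 5 genes. Of the genes of the myelinating stage, *Mog*, *Mag* and *Myrf* had no listed peak of either mark in NFOs, while *Cnp* and *Ugt8a* were K4 only. The lectin step targets microglia and endothelial cells, and of 8 microglial markers, K4 was listed at 0 in NSCs, 1 in OPCs (*Csf1r*) and 0 in NFOs. Of 8 endothelial markers K4 was listed at 3, 3 and 2. *Kdr* (7.56, 5.35 and 5.06) and *Flt1* (6.51, 6.05 and 9.15) had it in every stage, with K27 as well in OPCs and NFOs, while *Pecam1* and *Cdh5* were unmarked throughout. Mural and fibroblast markers had K4 at 4, 3 and 3 of 8 genes. Of 6 neuronal markers K4 was listed at 5, 6 and 4, and of 6 astrocyte markers at 4, 3 and 2. The part that other cells, which make much of the brain's collagen and laminin, had in the marks below was not tested. In these bulk lists a weaker mark and a mark in fewer cells cannot be told apart.

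The promoters of the matrix and integrin genes were mostly K4 only in NSCs and mostly unmarked or K27 only in NFOs. A K4 peak was listed at 47 of the 59 members in NSCs (79.7%), 40 in OPCs (67.8%) and 12 in NFOs (20.3%), against 64.3%, 60.7% and 43.6% of all protein-coding genes. K27 was listed at 11, 23 and 16 members in the same order of stages, against 15.1%, 16.4% and 9.56% of all genes. Members thus lay above all genes for K4 in NSCs and below them in NFOs, and above them for K27 in every stage, most of all in OPCs and NFOs.

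By state, 37 members were K4 only in NSCs, 1 was K27 only, 6 were bivalent, 4 mixed and 11 unmarked, where all genes gave 52.1%, 3.07%, 5.29%, 7.08% and 32.4%. In OPCs these counts were 23, 6, 4, 13 and 13, beside 49.5%, 4.92%, 2.99%, 8.51% and 34.1% of all genes. In NFOs they were 9, 13, 1, 2 and 34, beside 38.9%, 4.53%, 1.56%, 3.47% and 51.6%. The 13 members that were K27 only in NFOs became 10 with the filter of the Methods (3.86% of all genes) and 4 with a fold enrichment above 5 (1.09%), and *Col4a1* and *Col4a2* among the 13 share 1 peak.

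**Figure D1:**
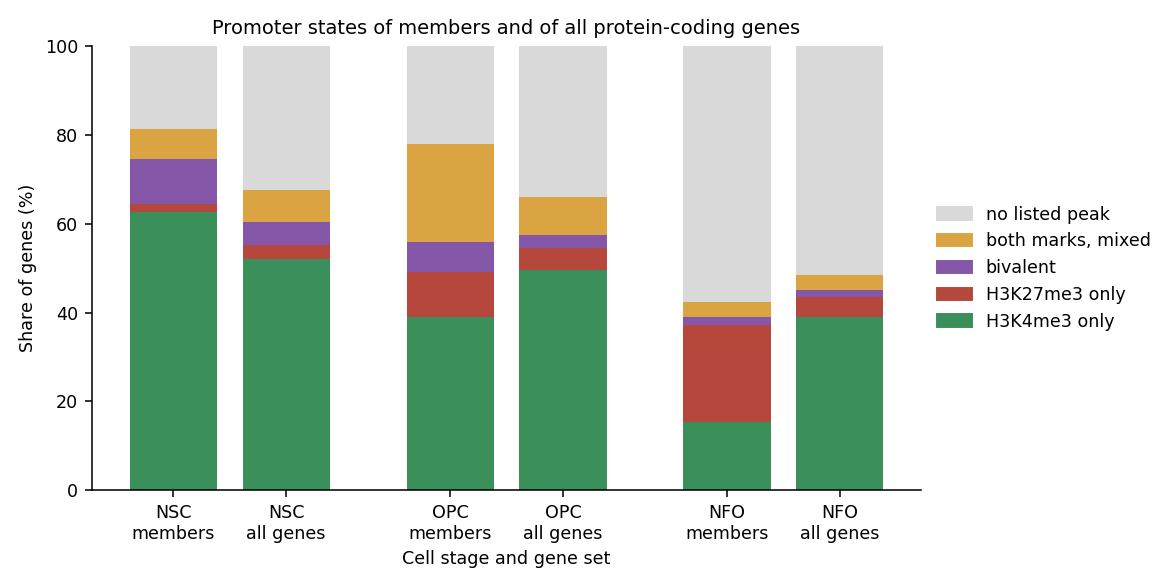
Stacked bars give the share of genes (%) in each promoter state in NSCs, OPCs and NFOs, for the 59 members (left bar of each pair) and all 21951 protein-coding genes (right bar). The share with K4 only was 62.7% of members in NSCs and 15.3% in NFOs, against 52.1% and 38.9% of all genes.

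The state differed between NSCs and OPCs for 27 members, where 23.3% of all genes differed, and between OPCs and NFOs for 34 members, against 28.2%. Between NSCs and NFOs it differed for 40 members, against 35.2%. Of the 47 members with K4 in NSCs, 9 had none in OPCs (7.5% of all genes with K4 in NSCs) and 35 had none in NFOs (74.5%, against 34.2%). From OPCs to NFOs, 28 of 40 had no K4 peak left (70.0%, against 30.6%), and no member had K4 in NFOs without K4 in OPCs. K27 was listed in OPCs at 14 of the 48 members that lacked it in NSCs (10.8% of all such genes), and in NFOs at 10 of these 48 (5.78%). Of the 36 members without K27 in OPCs, 4 had it in NFOs, where the background was 1.7%, and all 4 belong to those 10. These 4 were *Itgb3*, *Col8a1* and the pair *Col4a1* and *Col4a2*, which shares 1 peak, and only *Itgb3* was left with the filter of the Methods (1.57% of all genes). At 8 of 47 members K4 was listed in NSCs, and in NFOs no K4 but a K27 peak that NSCs lacked, against 2.97% of all genes. With that filter it was 5 of 45 against 2.88%. The 8 were *Col1a1*, *Col4a1*, *Col4a2*, *Col8a1*, *Lamb1*, *Itga6*, *Itga7* and *Itgb3*. The K4 and K27 peaks lay 0 to 387 bp apart at 7 of them, and at *Itgb3* they lay 27467 bp apart, at different starts.

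**Figure D2:**
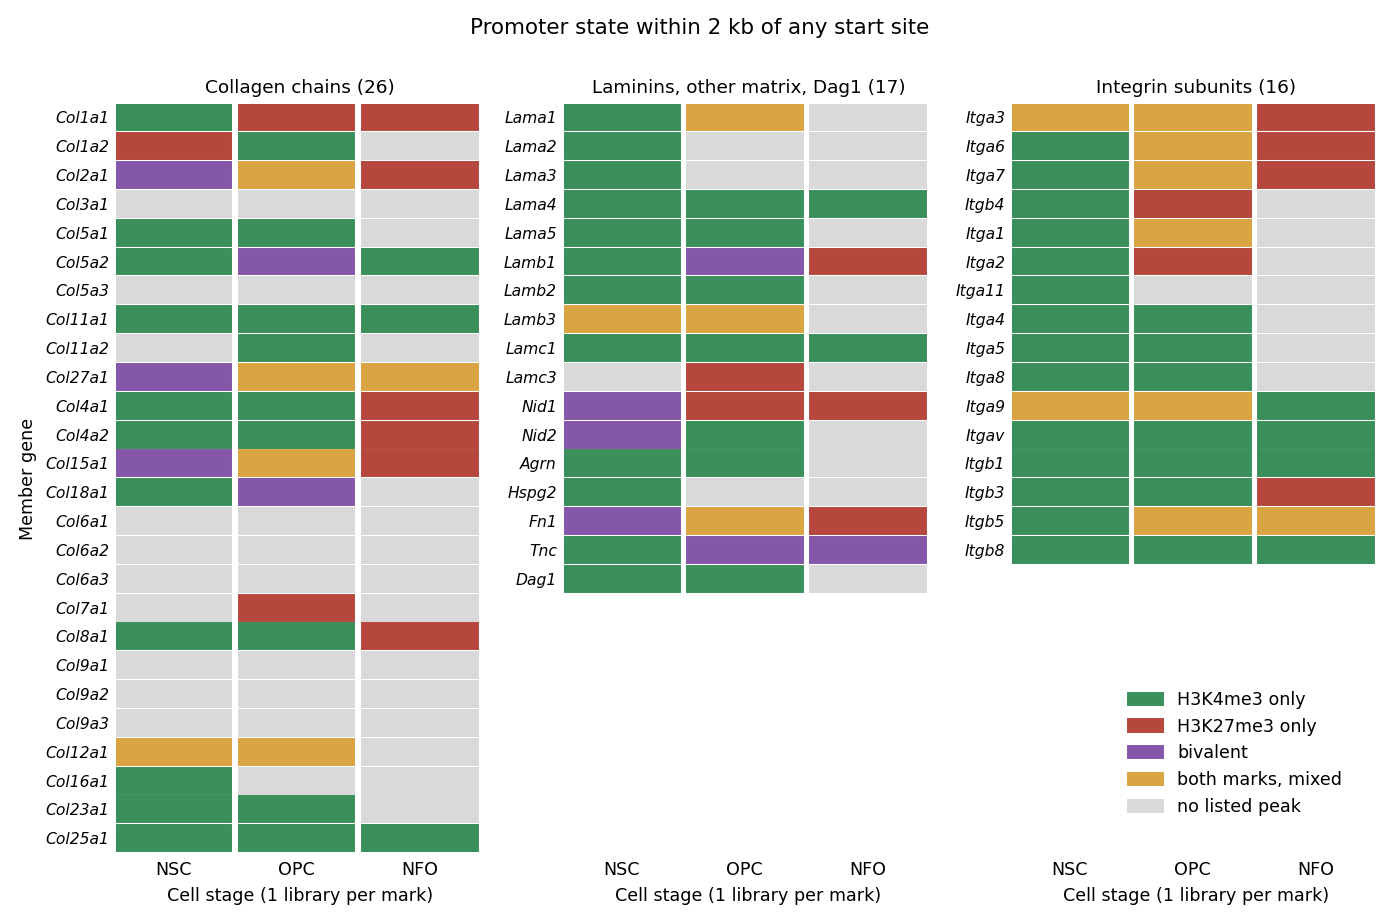
Each tile is the promoter state of 1 member gene (rows) in 1 cell stage (columns), in 3 blocks for collagen chains, laminins with other matrix genes and *Dag1*, and integrin subunits. Green (K4 only) covers 37 of 59 tiles in NSCs and 9 in NFOs, and the 8 genes that are grey in every stage are all collagens.

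The K4 peaks of members were on the weak side in NSCs and OPCs, measured by the fold enrichment over the control that the peak caller gave. The strongest peak per gene reached a median fold enrichment of 6.46 over the 47 members marked in NSCs, against 8.44 over all genes with a peak. For the 40 members marked in OPCs it was 5.09 against 6.5. In NFOs the 12 members with a peak had a median of 7.8 against 5.02. Of the 47 and 40 members with a peak, 33 and 27 lay below the median of all genes in NSCs and OPCs, and 4 of 12 did in NFOs. K27 peaks of members had median fold enrichments of 4.36, 5.06 and 4.04 in NSCs, OPCs and NFOs, close to the 3.79, 4.66 and 4.2 of all genes.

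**Figure D3:**
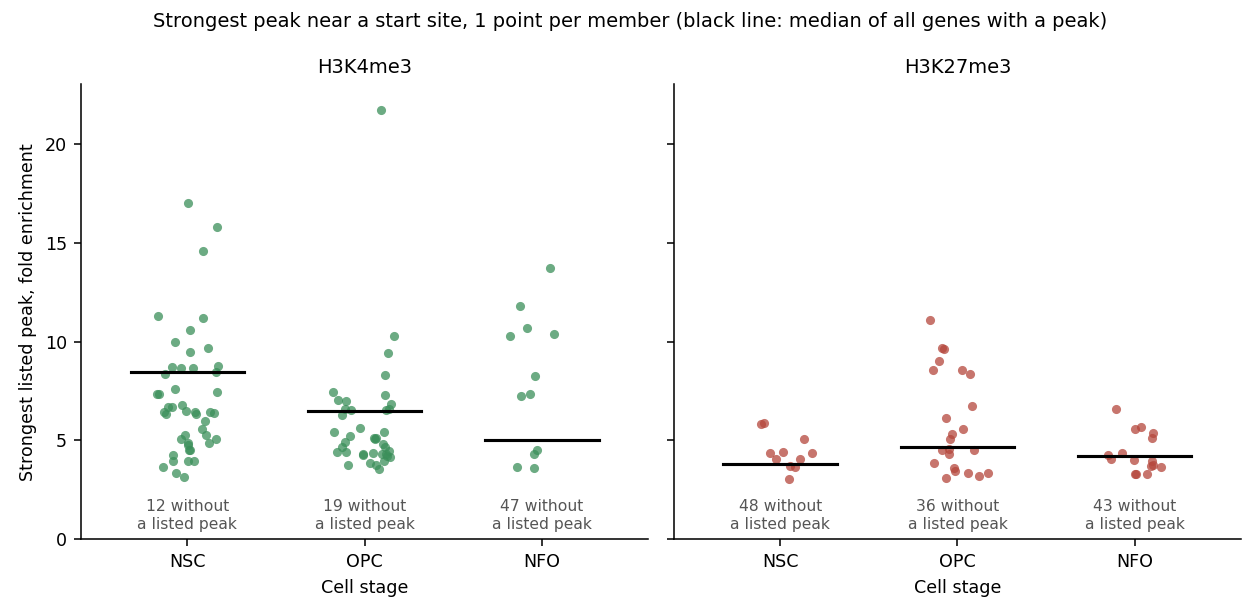
Points are the fold enrichment of the strongest listed K4 (left) or K27 (right) peak within 2 kb of a start site, 1 point per member and stage, spread sideways only to be seen. Black lines are the medians of all protein-coding genes with a peak (8.44, 6.5 and 5.02 for K4), and the numbers below count the members without a listed peak, 12, 19 and 47 for K4.

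Across the genome, genes with a weak K4 peak in NSCs more often had none in NFOs. Members were therefore also set beside genes with a K4 peak of like strength in NSCs, in bins chosen after seeing the data. With a strongest NSC fold enrichment below 5, 11 of 12 members had no K4 in NFOs, against 75.7% of all genes in the bin. From 5 to below 7.5 it was 17 of 19 members against 53.6%, from 7.5 to below 10 it was 6 of 10 against 28.1%, and from 10 upwards it was 1 of 6 against 7.02%. That 1 gene was *Lamb2*, whose NSC peak in this bin covers a start of its neighbour *Usp19*, and without it the count was 0 of 5. With only peaks of a fold enrichment above 5 the shares drew closer, at 27 of 35 members (77.1%) and 62.5% of all genes. The NFO peaks also lay apart from the starts, since the strongest K4 peak covered a start of its own gene at 4 of 12 members there. The same count was 43 of 47 for NSC peaks and 30 of 40 for OPC peaks. Over all genes with a K4 peak the share was 38.8% in NFOs, 90.8% in NSCs and 86.2% in OPCs. The part of the NFO library in the missing K4 peaks was not tested.

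**Figure D4:**
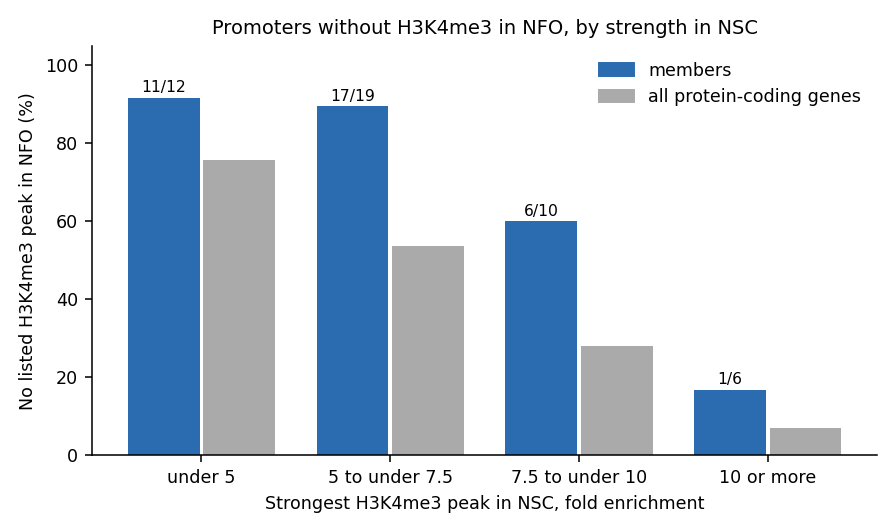
Bars show the share (%) of genes with K4 in NSCs that had no listed K4 peak in NFOs, for members (blue, with counts) and all protein-coding genes (grey), by the fold enrichment of the strongest NSC peak. The member bar stood above the grey bar in each of the 4 bins, with 12, 19, 10 and 6 members, and in the last by *Lamb2* alone, through a peak over the start of its neighbour *Usp19*.

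K4 was listed in all 3 stages at 12 members, and 7 of them were K4 only throughout, a pattern shown by 29.9% of all genes. The 7 were the integrin genes *Itgav*, *Itgb1* and *Itgb8*, the laminin genes *Lama4* and *Lamc1*, and the collagens *Col11a1* and *Col25a1*. *Itgb8*, whose product pairs with αv to activate latent TGF-β, had fold enrichments of 11.3, 8.31 and 13.7 in NSCs, OPCs and NFOs, and the widest K4 peak of any member in NSCs (5217 bp) and OPCs (4627 bp). *Itgb1*, the common β1 partner of most matrix-binding α subunits, had 14.6, 6.97 and 10.7, and *Itgav* had 10.6, 7.02 and 7.33. These 3 subunits can form αvβ1 and αvβ8 dimers, and their K4 peaks were listed in every stage while 9 of the 11 α subunits had none in NFOs. In NFOs, however, the strongest K4 peaks of *Itgav*, *Itgb8*, *Itgb1* and *Lamc1* covered no start. They lay 356, 519, 655 and 729 bp from the nearest one, and that of *Itgb1* was 268 bp wide. The NFO peaks of *Lama4*, *Col11a1* and *Col25a1* covered a start. *Lamc1*, the γ1 chain found in most laminins, had 8.38, 7.31 and 4.29, whereas *Lama4*, an α chain of vessel basement membranes, was weak at 3.98, 4.27 and 3.64. *Col11a1*, a minor fibrillar chain, had 11.2, 9.41 and 10.4, and *Col25a1*, a transmembrane collagen of neurons, had 9.45, 6.6 and 7.23.

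Collagens held most of the 11 and 13 unmarked promoters in NSCs and OPCs, but not most of the 34 in NFOs. Of 26 chains, 10, 9 and 16 were unmarked in NSCs, OPCs and NFOs, and K4 was listed at 15, 15 and 4. In NFOs 7 of 10 laminin chains were unmarked too. All 8 members that were unmarked in every stage were collagens (*Col3a1*, *Col5a3*, *Col6a1*, *Col6a2*, *Col6a3*, *Col9a1*, *Col9a2* and *Col9a3*). These 8 made up 13.6% of the 59 members, while 28.3% of all genes were unmarked in every stage. They include the main chains of type VI collagen, the beaded filaments of connective tissue, and the 3 chains of type IX, which sits on cartilage fibrils. Their starts were poor in CpG dinucleotides, with a median of 6.0 from 250 bases before to 50 after a start, against 12.5 over the 47 members with K4 in NSCs. All genes showed the same order, with 2.5 for unmarked genes and 16 for those with K4 in NSCs, although *Col5a3* and *Col6a2* were unmarked with 20.0 and 15.5, while *Col5a2*, *Col11a1* and *Tnc* had K4 in every stage with 2.0, 4.5 and 5.5.

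Type IV collagen is the network of every basement membrane, and its main chains *Col4a1* and *Col4a2* leave in opposite directions from starts 21 bp apart on chromosome 8. They therefore share their promoter peaks and count as 1 observation. Their joint K4 peak was enriched 6.67-fold in NSCs (chr8:11311992-11313684) and 6.54-fold in OPCs (chr8:11312280-11313067), and none was listed in NFOs. In NFOs a K27 peak of 383 bp stood beside the starts with a fold enrichment of 3.28, below the 3.5 that the Methods of the study require. The promoter is printed beside that of *Col3a1*, a fibrillar collagen without a listed peak in any stage, as examples of a marked and an unmarked collagen promoter. The windows are those of RefSeq on GRCm38.p6, and CG dinucleotides are in capitals.
Col4a1 promoter, chr8:11312777-11313076, minus strand: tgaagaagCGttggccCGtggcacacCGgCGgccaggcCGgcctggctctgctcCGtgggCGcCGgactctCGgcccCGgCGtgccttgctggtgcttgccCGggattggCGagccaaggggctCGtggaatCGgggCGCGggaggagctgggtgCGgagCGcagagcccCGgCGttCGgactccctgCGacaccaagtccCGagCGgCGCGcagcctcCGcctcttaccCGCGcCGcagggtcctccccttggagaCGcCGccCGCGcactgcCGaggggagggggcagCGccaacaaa
Col3a1 promoter, chr1:45311288-45311587, plus strand: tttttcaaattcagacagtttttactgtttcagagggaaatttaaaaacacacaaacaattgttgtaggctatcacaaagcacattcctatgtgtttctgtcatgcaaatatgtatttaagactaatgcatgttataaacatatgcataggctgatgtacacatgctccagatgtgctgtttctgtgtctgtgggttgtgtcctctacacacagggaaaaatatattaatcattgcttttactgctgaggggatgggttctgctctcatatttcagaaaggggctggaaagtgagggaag
The *Col4a1* window held 37 CG dinucleotides and the *Col3a1* window 0, counted in these windows alone and not as means over all annotated starts.

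Fibrillar collagens differed widely among themselves. *Col5a2*, a chain of the type V collagen that nucleates fibrils, had the strongest K4 peak of all members in NSCs (17.0) and OPCs (21.7), where the peak stood above 99.3% and 99.6% of genes with K4. In NFOs the peak had a fold enrichment of 11.8 and was 279 bp wide. A K27 peak of 233 bp (9.67) inside the OPC domain made the gene bivalent there, and it was K4 only in the other stages. The NFO K4 peak (chr1:45502583-45502861) and the OPC K27 peak (chr1:45502584-45502816) started 1 bp apart, so that the same short site was listed under opposite marks. *Col5a1*, its partner chain, had K4 at 6.79 in NSCs and 6.59 in OPCs and was unmarked in NFOs. Of the type I chains, *Col1a1* had K4 in NSCs (3.65) and K27 at its start in OPCs (4.31, 1373 bp) and NFOs (4.01, 1203 bp). *Col1a2* had a weak K27 peak in NSCs (3.06, 1186 bp), at an inner start and below the filter of the Methods, K4 in OPCs (3.58) and neither in NFOs. *Col2a1*, the chief collagen of cartilage, was bivalent in NSCs, with K4 up to 6.45 and K27 up to 5.89. It had wide K27 in OPCs (6.15, 4315 bp) beside a K4 peak of 245 bp (3.78), and only K27 in NFOs (up to 4.35). *Col27a1*, another cartilage chain, carried both marks in every stage, with K27 domains of 1658, 4796 and 4081 bp (5.06, 5.06 and 5.66), and K4 at 5.25, 5.22 and 8.28. *Col11a2* was listed with K4 in OPCs alone, at 4.43 and 288 bp.

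Among the other collagens, *Col15a1*, a basement membrane collagen of vessels, had K27 in all stages (4.06, 3.84 and 3.7) and weak K4 in NSCs (3.37) and OPCs (4.33). *Col18a1*, the source of endostatin, had K4 at 6.34 in NSCs and 4.17 in OPCs, with a K27 peak of 395 bp (3.2) in OPCs only. *Col8a1*, a short-chain collagen, had K4 at 4.85 and 4.3 and in NFOs a K27 peak of 609 bp at 3.28. *Col12a1*, a fibril-associated collagen, had both marks in NSCs (K4 6.49, K27 4.08) and OPCs (4.37 and 3.37) and neither in NFOs, and its NSC peaks lay at different starts. *Col23a1*, a transmembrane collagen, had K4 at 4.77 and 3.87 and was unmarked in NFOs. *Col16a1* had K4 in NSCs alone (3.14), and *Col7a1*, the anchoring fibril of skin, had only a K27 peak of 216 bp in OPCs (3.44). Of these 7 genes, none had K4 in NFOs.

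Of 10 laminin chains, 9 had K4 in NSCs and 7 in OPCs, but only *Lama4* and *Lamc1* had it in NFOs. *Lamb1*, the β1 chain of the laminins that oligodendrocyte precursors meet, followed a path from K4 to K27. It had K4 alone in NSCs (6.41, 2314 bp). In OPCs it was bivalent, with a K27 domain of 3851 bp (8.54) over its start. The OPC K4 peak (6.83) lay inside that domain, 693 bp from the nearest start. *Lamb1* had K27 alone in NFOs (5.6 and 3.94). Its states were the same under each of the 8 alternatives tried. *Lamb2*, the β2 chain, had K4 at 15.8 in NSCs and 10.3 in OPCs, but those peaks covered a start of the neighbouring gene *Usp19*, and the K4 peaks nearer its own starts had 5.19 and 3.58. *Lama5*, a ubiquitous α chain, had K4 at 7.37 and 4.23 and was unmarked in NFOs, and *Lama1*, the chain of early embryonic basement membranes, had 4.89 and 4.67 with a K27 peak of 271 bp (3.37) in OPCs. *Lama2*, the chain whose loss causes congenital muscular dystrophy with white matter changes, had a single K4 peak of 222 bp in NSCs (4.54), 1738 bp from a start. *Lama3* had K4 in NSCs alone (3.95). *Lamb3*, a chain of epithelial laminin, had both marks in NSCs, at different starts (K4 5.05, K27 3.7), and in OPCs (3.78 and 4.54) and neither in NFOs. Its NSC K4 peak covered a start of *Lamb3* and also one of the neighbouring gene *G0s2*. With 1 TSS per gene, *Lamb3* was unmarked in every stage. *Lamc3* had only a K27 peak of 200 bp in OPCs (4.53).

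The linkers of the basement membrane had no K4 in NFOs. *Nid1* (nidogen 1) was bivalent in NSCs, with K4 at 4.51 and K27 at 5.84, and K27 only in OPCs (9.02, 243 bp) and NFOs (3.78, 289 bp). *Nid2* was bivalent in NSCs (K4 6.32, K27 4.37), K4 only in OPCs (5.05) and unmarked in NFOs. Perlecan (*Hspg2*) had K4 in NSCs alone (6.46, 1440 bp), and agrin (*Agrn*), which also clusters acetylcholine receptors, had K4 at 8.64 (3657 bp) in NSCs and 5.12 in OPCs. *Fn1*, fibronectin, had K4 at 8.46 and 6.31, with K27 peaks of 182 to 305 bp in every stage (3.68 in NSCs, up to 11.1 in OPCs and 3.97 in NFOs). *Tnc*, tenascin C, a matrix protein of glial progenitors, was the single member that was bivalent in NFOs. Its K4 had fold enrichments of 9.99, 7.46 and 10.3, with a K27 peak of 809 bp in OPCs (5.31) and one of 185 bp in NFOs (3.68). In OPCs and NFOs the peaks of both marks all ended at the same base (chr4:64047736). The NFO K27 peak lay wholly within the NFO K4 peak, so that the same short site was listed under opposite marks.

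All 16 integrin subunits had K4 in NSCs, while 13 had it in OPCs and 5 in NFOs. The α subunits made up most of the difference, with 11, 9 and 2 of 11, whereas the β subunits had 5, 4 and 3 of 5. *Itga6*, which forms the laminin receptor of the oligodendrocyte lineage, had a K4 peak of 3039 bp in NSCs (9.65). In OPCs K4 was listed as 2 peaks of 202 and 680 bp (3.96 and 3.39) among 5 K27 peaks (3.07 to 8.36), and NFOs had 3 K27 peaks (3.29 to 5.36) and no K4. *Itga7* and *Itga3*, the other laminin-binding α subunits, also ended K27 only, *Itga7* with K4 at 7.43 and 5.65 and K27 at 6.76 in OPCs and 4.24 in NFOs. *Itga3* had K27 in each stage (4.42, 3.62 and 6.57) and K4 at 6.46 and 5.45 in NSCs and OPCs, the NSC marks at different starts. *Itgb4*, the partner of α6 in hemidesmosomes, had K4 in NSCs (3.98), a K27 peak of 1682 bp in OPCs (4.33) and neither mark in NFOs. *Dag1*, dystroglycan, was K4 only in NSCs (8.75) and OPCs (5.44) and unmarked in NFOs. None of these 5 genes had K4 in NFOs, and 3 of them were K27 only, whereas *Itgb1*, which pairs with α3, α6 and α7, was K4 only.

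The collagen-binding subunits *Itga1*, *Itga2* and *Itga11* had K4 in NSCs at 7.34, 5.25 and 4.27, and all were unmarked in NFOs. In OPCs, *Itga1* had K4 (4.45) with 2 weak K27 peaks (3.1 and 3.04), *Itga2* had only a K27 peak of 231 bp (9.61), and *Itga11* had no peak. *Itga4*, *Itga5* and *Itga8*, which bind fibronectin and related ligands, were K4 only in NSCs (5.09, 8.66 and 7.59) and OPCs (4.9, 4.33 and 4.82) and unmarked in NFOs. *Itga9*, a receptor of tenascin C, had both marks in NSCs (K4 5.58, K27 4.36) and OPCs (4.67 and 5.56), and in NFOs only a K4 peak of 648 bp (4.54) at 1858 bp from a start. That peak (chr9:118608548-118609195) began at the same base as a weak OPC K27 peak (2.96, chr9:118608548-118609196). *Itgb3* had K4 at 6.0 and 5.14 and in NFOs K27 alone (4.08, 935 bp), at another start. *Itgb5*, an αv partner that binds vitronectin, was covered by 6 K27 peaks in OPCs (up to 8.57) and 7 in NFOs (up to 5.11), while K4 had 8.7, 4.42 and 3.6.

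Many K27 peaks at members were short. The widest K27 peak was under 500 bp at 6 of the 11 members marked in NSCs, at 10 of the 23 in OPCs and at 5 of the 16 in NFOs, or 54.5%, 43.5% and 31.2%, against 44.6%, 40.9% and 28.3% of all genes with K27. Of the 14 members with K27 in OPCs but not in NSCs, 6 had only such short peaks (*Col5a2*, *Col7a1*, *Col18a1*, *Itga2*, *Lama1* and *Lamc3*) and 8 had wider ones (*Col1a1*, *Itga1*, *Itga6*, *Itga7*, *Itgb4*, *Itgb5*, *Lamb1* and *Tnc*). With K27 peaks of at least 500 bp alone, 2 instead of 6 members were K27 only in OPCs.

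OLIG2 is the basic helix-loop-helix factor that specifies the lineage, and it binds E-box motifs. OLIG2 peaks were listed in the body or 5 kb upstream of 21 members in OPCs and 24 in NFOs, 11 of them in both, against 16.5%, 28.2% and 9.79% of all genes. Members are long genes, with a median length of 78.0 kb against 17.4 kb, and per 100 kb searched they held 0.415 peaks in OPCs and 0.769 in NFOs, where all genes held 0.402 and 0.838. Below 50 kb, 4 of 19 members had an OPC peak and 1 of 19 an NFO peak (9.97% and 18.4% of all genes of that length). From 50 to below 100 kb it was 5 and 6 of 15 members (28.5% and 49.3%), from 100 to below 150 kb 6 and 11 of 17 (38.5% and 63.4%), and from 150 kb upwards 6 and 6 of 8 (55.6% and 80.2%). Per length searched, members thus stayed near all genes. Below 50 kb they lay above all genes in OPCs and below them in NFOs, on 4 and 1 of 19 members. They lay on the same sides from 50 to below 100 kb and from 150 kb upwards, but on the opposite sides from 100 to below 150 kb. Length was not matched within the bins.

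The strongest OLIG2 peaks lay in integrin and type IV collagen genes. In OPCs they were those of *Itga2* (18.4), *Col4a1* with *Col4a2* (18.3) and *Itgb3* (13.2), followed by *Col23a1* (10.0), *Itgb1* (9.58) and *Tnc* (9.27). In NFOs they were those of *Itga6* (29.5), *Col4a2* (24.4) and *Itgb5* (22.6), followed by *Lama3* (14.0), *Col25a1* (13.9) and *Lama2* (13.1). The *Itga2* peak sat in an intron 63121 bp from the nearest start, and the shared type IV collagen peak was 2166 bp inside *Col4a2* and 2145 bp upstream of *Col4a1*. The *Itgb3* peak was intronic, 788 bp from a start. The NFO peaks of *Itga6*, *Col4a2* and *Itgb5* were intronic as well, at 16508, 23280 and 11244 bp from a start, and *Itga6* had a second strong peak (20.4) and a weaker one (6.16). The *Itga2*, *Itga6*, *Itgb5* and NFO *Col4a2* peaks thus lay inside the genes and more than 2 kb from a start. The *Itgb3* peak lay within 2 kb of one, and the OPC peaks of *Itgb1* and *Tnc* lay 725 and 682 bp upstream of a start.

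**Figure D5:**
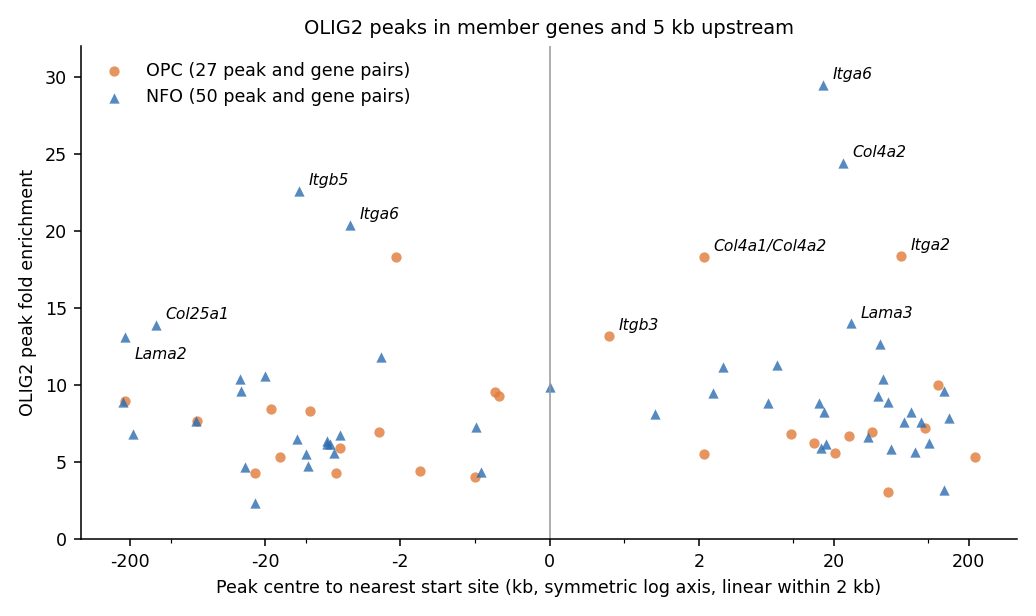
Each point is an OLIG2 peak in a member gene or 5 kb upstream, by distance of its centre from the nearest start (kb, negative upstream along the gene) and fold enrichment, with OPC peaks as orange circles and NFO peaks as blue triangles. Of 27 OPC pairs 5 and of 50 NFO pairs 4 lay within 2 kb of a start, and the OPC peak shared by *Col4a1* and *Col4a2* is drawn once for each gene.

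The 3 strongest sites of each stage and the NFO versions of the sites that were listed in both stages are printed here, on the plus strand of GRCm38. Capitals mark E-boxes, either CAGCTG, which reads the same on both strands, or CAGATG, which on the other strand is read as CATCTG. These 6-base motifs do not overlap each other here.
Itga2, OPC, chr13:114838707-114838936: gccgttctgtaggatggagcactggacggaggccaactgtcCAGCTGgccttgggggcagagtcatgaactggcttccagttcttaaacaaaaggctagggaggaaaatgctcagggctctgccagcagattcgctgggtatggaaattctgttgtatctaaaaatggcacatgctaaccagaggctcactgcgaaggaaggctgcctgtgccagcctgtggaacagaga
Col4a1 and Col4a2, OPC, chr8:11314856-11315085: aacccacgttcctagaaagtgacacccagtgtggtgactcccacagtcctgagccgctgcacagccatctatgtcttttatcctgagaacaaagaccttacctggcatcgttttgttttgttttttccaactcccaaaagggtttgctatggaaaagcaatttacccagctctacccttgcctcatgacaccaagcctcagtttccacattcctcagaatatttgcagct
Itgb3, OPC, chr11:104638062-104638291: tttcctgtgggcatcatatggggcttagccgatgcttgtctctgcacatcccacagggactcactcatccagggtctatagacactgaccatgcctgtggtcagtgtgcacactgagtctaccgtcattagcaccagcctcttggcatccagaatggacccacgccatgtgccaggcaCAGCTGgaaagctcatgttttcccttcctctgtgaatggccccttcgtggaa
Itga6, NFO, chr2:71803368-71803603: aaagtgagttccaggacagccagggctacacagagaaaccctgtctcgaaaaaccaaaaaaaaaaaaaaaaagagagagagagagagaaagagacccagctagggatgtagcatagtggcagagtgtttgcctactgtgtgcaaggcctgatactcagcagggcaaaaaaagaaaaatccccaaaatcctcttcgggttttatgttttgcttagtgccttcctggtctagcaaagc
Col4a2, NFO, chr8:11335967-11336202: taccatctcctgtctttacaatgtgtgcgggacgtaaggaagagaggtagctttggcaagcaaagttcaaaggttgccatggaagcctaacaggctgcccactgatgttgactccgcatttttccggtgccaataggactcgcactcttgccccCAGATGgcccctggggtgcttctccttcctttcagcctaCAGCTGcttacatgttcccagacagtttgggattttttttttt
Itgb5, NFO, chr16:33935162-33935397: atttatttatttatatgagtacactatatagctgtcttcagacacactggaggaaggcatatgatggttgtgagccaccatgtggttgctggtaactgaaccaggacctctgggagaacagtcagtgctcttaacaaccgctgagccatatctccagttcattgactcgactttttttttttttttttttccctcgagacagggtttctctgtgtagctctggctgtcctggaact
Lama2, NFO, chr10:27275044-27275279: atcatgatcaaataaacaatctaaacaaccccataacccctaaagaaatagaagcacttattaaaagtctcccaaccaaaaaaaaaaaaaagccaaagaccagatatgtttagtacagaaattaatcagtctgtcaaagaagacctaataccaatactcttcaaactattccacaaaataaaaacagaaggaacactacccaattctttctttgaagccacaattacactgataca
Itga7, NFO, chr10:128952676-128952911: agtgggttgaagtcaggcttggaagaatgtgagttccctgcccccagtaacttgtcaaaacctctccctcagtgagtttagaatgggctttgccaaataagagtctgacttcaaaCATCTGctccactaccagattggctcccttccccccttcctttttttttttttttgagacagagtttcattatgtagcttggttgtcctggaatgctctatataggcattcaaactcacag
The *Itga2* and *Itgb3* sites each held 1 CAGCTG, the NFO site of *Col4a2* held 1 of each kind, the *Itga7* site held 1 CATCTG, and the other 4 held none. Over all peaks at members, 13 of 26 in OPCs and 7 of 50 in NFOs held any of these E-boxes, against 29.6% of 7384 and 25.6% of 16911 listed peaks. The site of *Itgb5* consisted to 96.2% of bases that the reference masks as repeats, that of *Itga6* to 60.2% and that of *Lama2* to 88.1%, whereas *Itga2* and *Itgb3* had 0.0% and *Col4a2* in NFOs 9.32%. At least 50% of the peak was repeat at 5 of 26 member peaks in OPCs and 13 of 50 in NFOs, against 22.6% and 28.9% of all listed peaks. The effect of repeats on the mapping was not tested.

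Overlap with an OLIG2 peak of the other stage was found for 2 of 26 member peaks in OPCs and 2 of 50 in NFOs, against 15.9% and 7.54% of OLIG2 peaks in protein-coding genes. Of the 11 members with peaks in both (*Col4a2*, *Col12a1*, *Col18a1*, *Col25a1*, *Lama2*, *Lama3*, *Dag1*, *Itga7*, *Itga9*, *Itgb3* and *Itgb5*), only *Lama2* and *Itga7* had overlapping ones. The *Lama2* peak had fold enrichments of 8.96 in OPCs and 13.1 in NFOs, in an intron 218517 bp before the nearest start, and the exonic *Itga7* peak had 4.01 and 7.31. *Lama2*, the longest member at 639.7 kb, had 3 peaks in OPCs and 6 in NFOs, and *Col25a1*, at 468.4 kb, had 1 and 7. *Dag1* had 3 peaks in OPCs (up to 6.68) and 1 in NFOs (11.3), and *Itga9* had 1 and 4 (8.43 and up to 9.47). *Itgb3* had 2 in OPCs and 1 in NFOs (6.16), and *Itgb5* had 1 in each (8.31 and 22.6). *Col12a1* and *Col18a1* had 4.33 in OPCs and up to 6.19 and 11.2 in NFOs, and *Lama3* had 6.95 and up to 14.0.

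OLIG2 peaks at members overlapped K4 less often than all OLIG2 peaks in protein-coding genes did, in both stages. For K27 their share was near that of all such peaks in OPCs and above it in NFOs. Each comparison rests on 2 to 6 overlapping peaks at members. A K4 peak was overlapped by 2 of 26 OPC peaks (17.5% of all OLIG2 peaks in protein-coding genes) and 2 of 50 NFO peaks (11.1%). In OPCs these were at *Itgb1*, 725 bp upstream of a start on a K4 peak of 6.97, and at *Tnc*, 682 bp upstream on both K4 (7.46) and K27 (5.31). In NFOs they were at a start of *Col25a1* (K4 7.23) and inside *Itga9* (K4 3.6). A K27 peak was overlapped by 2 of 26 OPC peaks (10.1%) and 6 of 50 NFO peaks (2.73%), the latter in *Itga6*, *Nid1*, *Itga11* and *Itgb3*. With the filters of the Methods on all lists, 1 of these 6 NFO overlaps was left. *Nid1* held 2 weak OLIG2 peaks (4.66 and 2.35) within K27 domains of 3997 and 4675 bp.

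Other genes of the pathway were counted from fixed lists, which were also chosen with earlier results of these data known. The other 18 collagens had K4 at 10, 6 and 2 genes, stage by stage, and K27 at 5, 4 and 5, and the other 11 laminin and integrin subunits, most of them of blood cells and epithelia, at 1, 0 and 1. Of 20 enzymes and chaperones that process collagen, K4 was listed at 18, 15 and 9, and the lysyl hydroxylases *Plod1*, *Plod2* and *Plod3* had it in every stage. Matrix proteases and their inhibitors had K4 at 8, 9 and 6 of 10, *Timp2*, *Timp3* and *Mmp14* among them in each stage. Adaptors and kinases that act below integrins had it at 14, 13 and 9 of 15, including *Ilk*, *Tln1* and *Ptk2* in each stage. The lecticans and linkers of the brain's own matrix had it at 10, 11 and 5 of 11. Of the genes with K4 in NSCs, 8 of 10 other collagens, 9 of 18 processing genes, 2 of 8 proteases and inhibitors, 5 of 14 adaptors and 5 of 10 lecticans had none in NFOs, beside 35 of 47 members and 34.2% of all genes.

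RNA bound by OLIG2 was a readout apart from chromatin, with labels that name NFOs while the Methods name NSCs. In the OLIG2 RIP, 10 members had listed sites, and of these 5 had a site that passed the criteria of the Methods as applied here (an RPKM above 1, a p-value below 0.01, and tags more than 2 times those at overlapping control sites), against 17.7% of 555 listed protein-coding genes. Summed over sites, *Itgb1* had 13106 tags with OLIG2 and 14673 with IgG, a ratio of 0.893 (95% interval by exact binomial limits 0.872 to 0.915), and *Agrn* 10122 and 10736, a ratio of 0.943 (0.917 to 0.969). *Lama5* had 3273 and 3614 (0.906), *Itgb8* 1491 and 1581 (0.943) and *Lamb3* 788 and 1014 (0.777). *Col9a3* had 792 and 886 (0.894). These intervals cover counting error only, and the median ratio was 0.9 over the 10 members and 0.93 over 535 genes listed in both libraries. Sites passed in *Agrn* (25), *Lama5* (14), *Itgb1* (13), *Itgb8* (3) and *Itga7* (1), while the summed tags of these 5 genes were not above IgG.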

How the data were processed

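Members and gene lists were chosen with earlier results of these data known. ChIP-Seq reads were mapped by the authors to mm10 (GRCm38) with Bowtie2, unique reads were kept, and peaks were called per library with SPP (OLIG2) and MACS2 (broad K4 and K27 peaks). The deposited lists give the authors' fold enrichment, a ratio over the control, and the −log10 of the p-value and FDR. The RIP-Seq lists, made with ASPeak by the authors, hold a tag count, a p-value and a transcript RPKM per site. The depth is unknown, which limits the precision of every list. The 3 input libraries were not used here.

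All listed peaks were used, with any overlap of 1 bp, against GENCODE M21 starts. Libraries were grouped by title. Alternatives were the filter of the Methods (FDR below 0.05, fold enrichment above 3.5, or 5 for OLIG2), stricter fold enrichments, other windows, 1 TSS per gene, larger overlaps, wider bivalent definitions and other RIP criteria. K27 peaks of at least 500 bp, and both marks in the window counted as bivalent, were added after seeing the data, as were the alternatives for new K27 and for *Lamb2*. State assignment was tested on simulated peaks. Named genes were those whose state differed, those with K27, and those with the strongest or widest peaks or the most RIP tags. Intervals came from SciPy 1.17.1, sequences were read with pysam 0.24.0 and tables with pandas 2.3.3, under Python 3.11.15.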

Additional observations from a re-analysis of the deposited data

How the results depend on the processing

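Each value rests on 1 library, so called peaks, not replicates, limit these counts. Of 134 recomputed values, 108 stayed within 1.5 times the reported one. With a fold enrichment above 5, 2 members were bivalent in NSCs (reported 6), 15 were K4 only in OPCs (23), 4 were K27 only in NFOs (13) and 20 differed in state between OPCs and NFOs (34). With OLIG2 peaks above 10, 5 members had one in OPCs (21), 11 in NFOs (24) and 1 in both (11). With 1 TSS per gene, 0 members were K27 only in NSCs (1). With an overlap of 200 bp, 0 were bivalent in NFOs (1). Counting any bivalent domain, 10 were bivalent in OPCs (4) and 3 in NFOs (1). With K27 peaks of at least 500 bp, chosen after seeing the data like the next setting, 3 were bivalent in NSCs (6), 2 were K27 only in OPCs (6) and 0 were bivalent in NFOs (1). With both marks in the window, 10, 17 and 3 were bivalent in NSCs, OPCs and NFOs (6, 4 and 1). For new K27, settings other than all peaks were also chosen after seeing the data. With the filter of the Methods 1 member had K27 in NFOs and not in OPCs (4), and 5 had K4 in NSCs and new K27 without K4 in NFOs (8). Above 5, these counts were 1 and 4, and 9 members gained K27 from NSCs to OPCs (14) and 4 from NSCs to NFOs (10). With *Lamb2* placed by its own peak, 0 members with K4 of 10 or more in NSCs had none in NFOs (1). With the filters of the Methods, 1 OLIG2 peak at members lay on K27 in NFOs (6), and without a minimum RPKM 8 members had RIP sites (5). The causes were not tested beyond what each setting removes or adds by its construction. The number of members with K4 in NSCs and none in NFOs was 27 to 35 under the 4 alternatives tried. The states of 20 members were the same in all stages under the 6 histone alternatives fixed at the start, *Lamb1*, *Itgb1*, *Itgb8* and *Itgav* among them. The 20 include the 8 members that were unmarked in every stage. Those 8 had no listed peak that these alternatives could remove or regroup, so their states could not change. No paired analysis was possible because each condition has 1 library and no result comes from a test.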
